A study of Mus musculus with 24 samples.

Results

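The genes described here are 10 components of the switch that carries a cell from G1 into S phase: the D-type cyclins Ccnd1, Ccnd2 and Ccnd3, the E-type cyclins Ccne1 and Ccne2, the kinase Cdk6, and the CDK inhibitors Cdkn1a, Cdkn1b, Cdkn2a and Cdkn2b. They were chosen by name, without a rule on their values but with earlier results of these data known. They make up 10 of the 47937 genes of the count tables. All 10 were found in both tables. All 10 passed the filter on low counts, run over all libraries of a table together, which left 17021 genes in the RNA-seq table. In the immunoprecipitation table it left 22621 features (genes and repeat subfamilies). The study asked whether RNA from heterochromatic repeats is methylated, and for the mark N6-methyladenosine (m6A) it used mouse embryonic stem (ES) cells without Mettl3 or Mettl14, subunits of the enzyme that writes it. It measured RNA by RNA-seq, and m6A by MeRIP, in which sonicated RNA is pulled down with an antibody to m6A (the IP) and sequenced beside the RNA before the pull-down (the input). Each of 4 lines had 2 RNA-seq libraries, 2 inputs and 2 IPs, and each IP was combined from 3 pull-down reactions.

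WT26 was the wild-type ES line that served as control for the Mettl14 KO line. The Mettl14 KO line was a single CRISPR clone of WT26 with a homozygous frameshift deletion. Guides against Mettl3 and Mettl14 had been transfected together, and the paper reports that the targeted domain of Mettl3 was intact in this clone. RBC was the control of the Mettl3 KO line and was itself engineered: it carried the biotin ligase BirA with a V5 tag in the Rosa26 locus and a tamoxifen-dependent Cre. The Mettl3 KO line was a single clone derived from RBC, taken over from another study, and so carried those same alleles. All 4 lines had a mixed 129/Sv and C57Bl6 background and grew on gelatin in medium with serum replacement and the cytokine LIF. Since each knockout was 1 clone, the deletion and the history of the clone cannot be told apart, and nothing in the labels ties the replicates to separate clones, so p-values measure only the spread between these libraries. The labels name total RNA, whereas the methods of the study describe nuclear RNA.

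In G1, growth signals raise the D-type cyclins, which bind Cdk4 or Cdk6 and start the phosphorylation of the retinoblastoma protein. E-type cyclins bind Cdk2 and complete it, which frees E2F factors to switch on the genes of DNA replication. The Cip/Kip inhibitors p21 (Cdkn1a) and p27 (Cdkn1b) hold back Cdk2 complexes, and the INK4 inhibitors p16 and p15 (Cdkn2a and Cdkn2b) keep Cdk4 and Cdk6 from their cyclins. Mouse ES cells are known for a short G1 phase, high cyclin E and little INK4 inhibitor. m6A on mRNA is read by proteins that often speed its decay, and it lies mostly near stop codons in the context DRACH, of which GGACT is a common form.

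The RNA-seq libraries held 11321459 to 13743181 counts and the MeRIP libraries 9394163 to 28441282. RBC replicates stood apart from each other more than other RNA-seq replicates did, at 39.8 for the chi-square over its degrees of freedom, where the other lines gave 2.95 to 6.31. RNA of both targeted genes was still present in the knockouts. Mettl14 gave 400.6 and 357.5 normalized counts in WT26 and 296.5 and 315.6 in Mettl14 KO, a log2 fold change of -0.31 (SE 0.0871, edgeR adjusted p = 0.00609). Mettl3 gave 927.7 and 978.9 in RBC, against 880 and 820.9 with Mettl3 KO, a change of -0.16 (SE 0.0707, adjusted p = 0.0588), so the RNA levels, summed over whole genes, are no check of the knockouts. All 10 ES cell markers were detected in every library, and summed to 37622.8 and 38736.6 in WT26 against 27264.7 and 27369 in Mettl14 KO. Their sum was 33503.8 and 34028.9 in RBC against 19957.3 and 20803.6 in Mettl3 KO. In Mettl3 KO 2 of them were called lower (Dppa5a, -2.03, and Tdgf1, -1.32). By adjusted p alone 9 fell and 1 rose there, with changes from -2.03 to 0.58. In Mettl14 KO 10 fell, with changes from -0.79 to -0.17 and none called. Of all genes 53.4% and 52.5% passed by adjusted p alone in these comparisons, in either direction. The 7 primitive endoderm markers summed to 106.7 and 99.8 in WT26 and to 323.5 and 309.8 in Mettl14 KO. The 5 of them that could be tested were all called higher there. In the control line RBC 2 of these 5 were also called higher than in WT26 (Sox7, 2.21, and Dab2, 2.10), with a list median of 0.16. In Mettl3 KO against RBC 1 was called lower (Sox7, -1.24) and 0 higher, with a median of -0.50. Neural markers summed to 378 to 434.8 in WT26, 448.7 to 464.7 in Mettl14 KO, 840.9 to 855.3 in RBC and 944.4 to 980 in Mettl3 KO. Of the 3 that could be tested, 1 was called in each knockout, Pax6, and it was higher in both. Its change was 1.96 in Mettl14 KO (edgeR adjusted p = 6.2e-07) and 1.21 in Mettl3 KO (adjusted p = 5.1e-06). The medians of the 3 were -0.04 and 0.20. In RBC against WT26, 2 were called higher, among them Pax6 (1.61). Genes of chromosome Y summed to 3527.9 to 3722.1 in WT26, 8369.3 to 8673.3 in Mettl14 KO, 171.5 to 210.4 in RBC and 677.9 to 759.2 in Mettl3 KO. The part of these shifts in the results below was not tested, and in bulk RNA fewer cells of a type and less RNA per cell cannot be told apart.

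GGACT was present in the longest coding transcript (GENCODE M21, sense strand, overlapping matches counted) of 9 of the 10 genes, all but Cdkn2a, and in 91.7% of the 14749 protein-coding genes tested in MeRIP. Cdk6 held 9 copies, of which 7 lay in its 3' UTR, and Ccnd2 held 6, all in its 3' UTR. Per kilobase, Cdkn1a held 1.92 copies (87.0th percentile of those genes), Ccne1 1.5 (74.0th) and Ccnd3 1.42 (70.6th), and the other 7 lay below the median of 1.05. For 6 genes that the results turn on, 1 copy is printed here with 8 bases on each side, the motif in capitals. It is the copy nearest the stop codon among those whose window lies within 1 exon. Windows are read 5' to 3' on the strand of the gene. Of the well-expressed members, Cdkn1a, Ccne1 and Cdkn1b had the highest IP over input in the control lines and Cdk6, with Ccnd3, the lowest, Ccnd2 changed most in level, and Cdkn2b holds its single copy close to its stop codon.
Cdkn1a: aatgagtaGGACTttggggtc
Ccne1: gacccactGGACTcttcacac
Cdkn1b: agaccccaGGACTgctggcag
Cdk6: cgaggtctGGACTttcttcat
Ccnd2: cagacagtGGACTaggtcagc
Cdkn2b: ttccgcaaGGACTtctttctc

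In GRCm38 these windows lie at chr17:29099841-29099861 (plus strand) for Cdkn1a, chr7:38098232-38098252 (minus) for Ccne1, chr6:134922149-134922169 (plus) for Cdkn1b, chr5:3429012-3429032 (plus) for Cdk6, chr6:127127968-127127988 (minus) for Ccnd2 and chr4:89307015-89307035 (minus) for Cdkn2b. The A of the motif lay in the 3' UTR 458 bases past the stop codon in Cdkn1a, 273 in Ccne1, 85 in Cdkn1b, 2357 in Ccnd2 and 29 in Cdkn2b. In Cdk6 the printed copy lay in the coding sequence. IP counts were deposited per gene, so these are matches to the letters and not mapped m6A sites.

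Among the 10 genes, Ccne1 had the highest RNA-seq level per kilobase of merged exons in all 4 lines, with a mean between 455.6 (RBC) and 470.2 (WT26) normalized counts per kilobase. In WT26 it was followed by Ccnd3 (143.5), Cdk6 (143.1), Ccnd1 (131.7), Ccne2 (118.9), Cdkn1b (110.5) and Cdkn1a (90.2). The INK4 genes and Ccnd2 stood far below, with Cdkn2a at 13.5, Cdkn2b at 5.81 and Ccnd2 at 1.0. Only Ccnd3 and Cdk6 overlapped between their replicates there. In Mettl14 KO Cdk6 was seventh, at 43.64, behind Cdkn1a (70.31). In Mettl3 KO Ccnd2 reached 42.37 and stood eighth, above Cdkn2a (16.44) and Cdkn2b (4.99), and only Cdk6 and Cdkn1b overlapped between neighbours. The order depends on the length used: over the longest coding transcript Ccnd3 came first in RBC, at 700.7, and Ccne1 first in the other 3 lines.

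**Figure D1:**
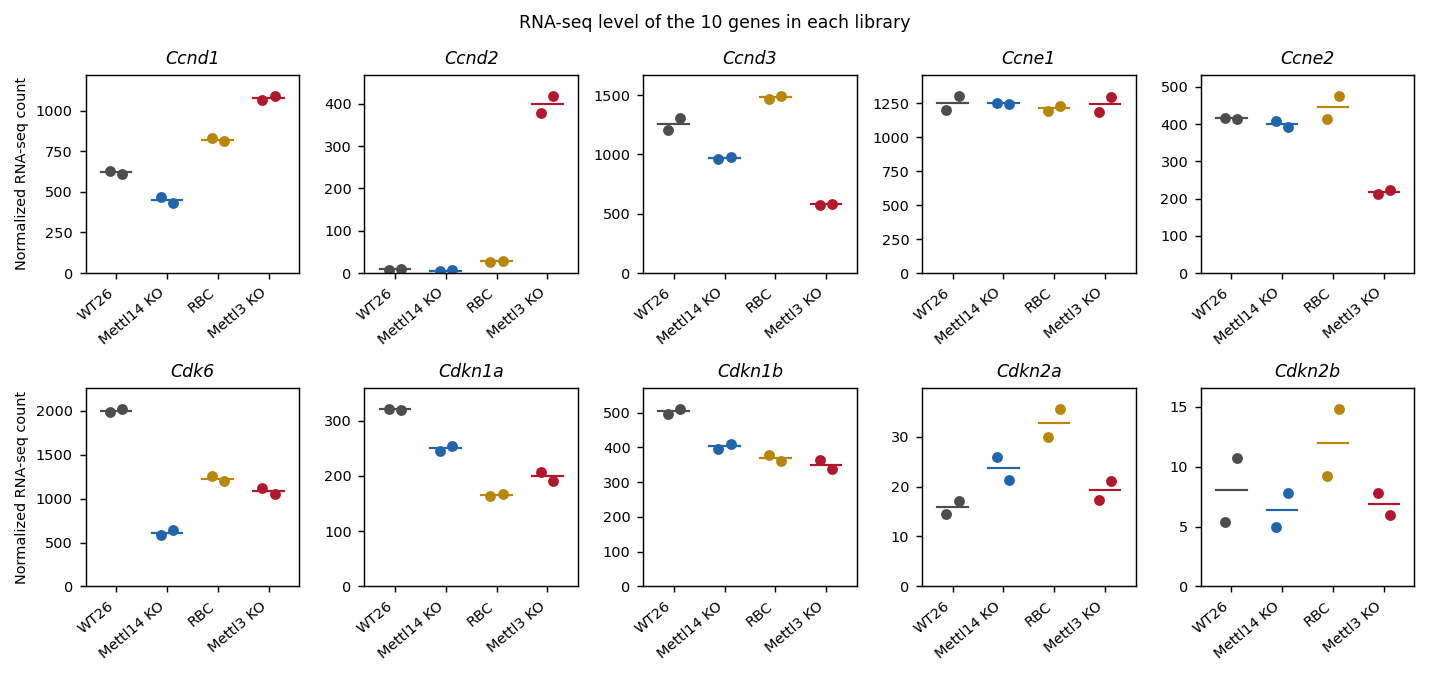
RNA-seq level of each of the 10 genes in the 8 libraries, as normalized counts on a linear axis from 0 (points are libraries, 2 per line, and bars across them their means). Ccnd2 stands at 378.3 and 419.0 in Mettl3 KO against 4.0 to 29.6 in the other 6 libraries, and Cdk6 at 581.9 and 639.1 in Mettl14 KO against 1057.6 to 2020.6.

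A gene was called when its edgeR adjusted p, taken over all features tested, was at most 0.05 and its log2 fold change exceeded 1 in size. With only the libraries compared, 8 of the 10 passed the filter in Mettl14 KO against WT26 (not Ccnd2 and Cdkn2b). In Mettl3 KO against RBC 9 passed (not Cdkn2b). The counts below come from the fit over all RNA-seq libraries. In Mettl14 KO against WT26, 1 of the 10 genes was called (Cdk6, lower), against 14.5% of all genes tested. By adjusted p alone 5 of the 10 fell and 0 rose, against 4594 and 4336 of all 17021 genes (52.5% in either direction). The median log2 fold change was -0.34 for the 10 genes and 0.00 for all. In Mettl3 KO against RBC, 3 were called (Ccnd2 higher, Ccnd3 and Ccne2 lower) against a background of 13.6%. By adjusted p alone 3 rose and 4 fell, against 4296 and 4789 of all 17021 genes (53.4% in either direction), and the median was -0.12. Among these 7, Cdkn1a, Cdk6 and Cdkn2a did not pass with DESeq2. The shares of 5 and 7 in 10 by adjusted p alone stand near the backgrounds and are no result about these genes as a group, so the description that follows is by gene.

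The 2 control lines differed as well. In RBC against WT26, 2 of the 10 were called (Ccnd2 and Cdkn2a, both higher in RBC), against 8.98% of all genes, and by adjusted p alone 4 were higher and 3 lower, against 38.9%. This comparison shares the WT26 libraries with the Mettl14 KO contrast and the RBC libraries with the Mettl3 KO contrast. Testing how the change in Mettl14 KO differed from that in Mettl3 KO called 3 of the 10 (Ccnd2, Cdk6 and Cdkn2a) against 14.0%, and 7 by adjusted p alone against 43.2%.

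**Figure D2:**
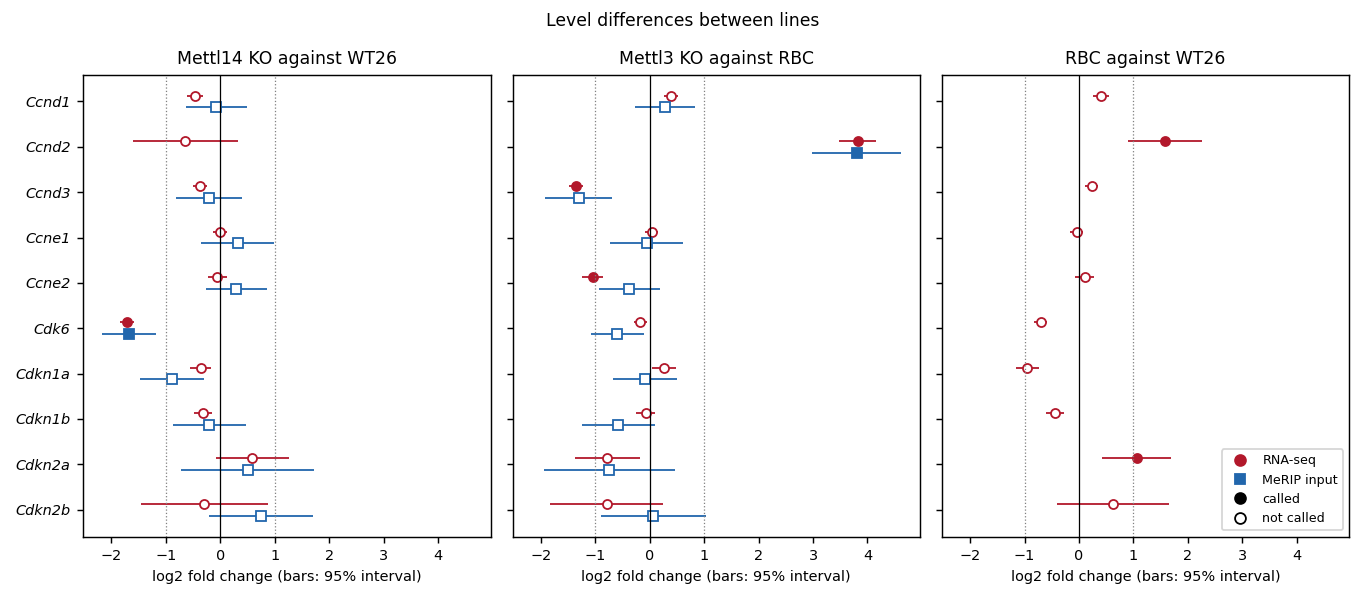
Log2 fold change of each gene with its 95% interval (edgeR) in RNA-seq (circles) and in the MeRIP inputs (squares), for Mettl14 KO against WT26, Mettl3 KO against RBC and, in RNA-seq, RBC against WT26, filled where called, with dotted lines at the size limits and without Ccnd2 in the Mettl14 KO inputs (3 raw counts per library). In RNA-seq Ccnd2 lies at 3.82 in Mettl3 KO and Cdk6 at -1.71 in Mettl14 KO, and Ccne1 lies between -0.04 and 0.03 in all 3 comparisons.

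Ccnd2 encodes cyclin D2 (ENSMUSG00000000184, chromosome 6, 127125162 to 127152193, minus strand, GRCm38). It gave 26.4 and 29.6 normalized counts in RBC and 378.3 and 419.0 in Mettl3 KO, so both knockout libraries stood far above both controls. It rose 14.1-fold (log2 fold change 3.82, SE 0.164, edgeR adjusted p = 3.7e-12). In WT26 it gave 8.1 and 10.7, and in Mettl14 KO 4.0 and 7.8, from raw counts of 9, 10, 4 and 8. All 4 of those libraries were low, and the change of -0.64 (95% interval -1.61 to 0.32, adjusted p = 0.294) was not detectable at this depth. In those 4 libraries alone Ccnd2 did not pass the filter, so it entered this contrast through the other lines. RBC stood 2.99-fold above WT26 (log2 fold change 1.58, SE 0.325, adjusted p = 8.4e-04). The change in Mettl14 KO differed from that in Mettl3 KO by -4.46 (SE 0.521, adjusted p = 2.3e-06).

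The antisense neighbours of Ccnd2, Gm43126 and 9330179D12Rik, share 372 and 368 exon bases with it. In RNA-seq Gm43126 was at 0 in every library and 9330179D12Rik at no more than 2.6 normalized counts. The MeRIP inputs gave a second reading of the rise in Ccnd2: 23.6 and 30.3 normalized counts in RBC against 359.7 and 395.0 in Mettl3 KO. Gm43126 also stood higher in the Mettl3 KO inputs (12.7 and 11.2, against at most 1.3 in the others), and its part in the Ccnd2 count was not tested. The input groups of Ccnd2 did not overlap, and the log2 fold change there was 3.80 (adjusted p = 2.7e-04). In the inputs of Mettl14 KO, Ccnd2 had 3 raw counts in each library against 18 and 9 in WT26, too few for a fold change, and was not called.

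Ccnd3, cyclin D3 (ENSMUSG00000034165, chromosome 17, 47505051 to 47599691, plus strand), moved the other way. It gave 1466.8 and 1494.5 normalized counts in RBC and 573.9 and 586.2 in Mettl3 KO, with no overlap, and fell 2.55-fold (log2 fold change -1.35, SE 0.0594, adjusted p = 4.5e-12). In Mettl14 KO it gave 961.5 and 982.0 against 1207.2 and 1310.9 in WT26, again without overlap. That fall was smaller (-0.37, SE 0.0571, adjusted p = 2.9e-05), and the difference between the knockouts was 0.98 (adjusted p = 4.6e-08), just under the size limit of a call, which it passed (1.04) without WT26 replicate 2. Bysl, on the other strand with 361 shared exon bases, stood between 495.6 and 680.2 in all libraries. In the inputs Ccnd3 gave 1014.0 and 955.4 in RBC against 446.9 and 350.0 in Mettl3 KO, a change of -1.30 that missed the limit (adjusted p = 0.0545). With the replicate block it was called (-1.32, adjusted p = 0.0097), as it was with DESeq2 (adjusted p = 0.00385).

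Ccnd1, cyclin D1 (ENSMUSG00000070348, chromosome 7, 144929931 to 144939925, minus strand), changed in opposite directions in the 2 knockouts, by less than a call. It gave 631.2 and 608.7 normalized counts in WT26 and 466.7 and 431.6 in Mettl14 KO, a fall of 0.47 on the log2 scale (SE 0.0695, adjusted p = 2.1e-05). In RBC it gave 828.8 and 811.3 and in Mettl3 KO 1063.5 and 1090.8, a rise of 0.39 (SE 0.0635, adjusted p = 4.7e-05). Neither pair of groups overlapped, and the difference between the changes was -0.86 (SE 0.0941, adjusted p = 1.1e-06), which passed the size limit (-1.04) only with scaling by library size among the alternatives. LTO1, which shares 1100 exon bases with Ccnd1 on the other strand, stood between 185.4 and 291.4.

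The make-up of the D-type cyclins differed between RBC and Mettl3 KO more than their summed RNA did, when levels were set per kilobase of merged exons. On that scale the 3 summed to 346.0 and 345.8 in RBC against 331.5 and 343.0 in Mettl3 KO. Within that sum the share of Ccnd2 was 0.812% and 0.909% in RBC against 12.1% and 13.0% in Mettl3 KO, and the share of Ccnd3 was 48.3% and 49.3% against 19.7% and 19.5%. Both Mettl3 KO sums lay below both RBC sums, with a log2 ratio of -0.04. In Mettl14 KO the sum was 209.1 and 204.4 against 272.5 and 279.8 in WT26, a log2 ratio of -0.42, with shares of Ccnd1 between 44.8% and 49.2% in those 4 libraries. The Mettl3 KO ratio rests on the length used, since Ccnd3 has long merged exons: over the longest coding transcript it was -0.56, and that of Mettl14 KO was -0.39. Over those lengths Ccnd2 still made up 9.71% and 10.4% of the sum in Mettl3 KO.

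**Figure D3:**
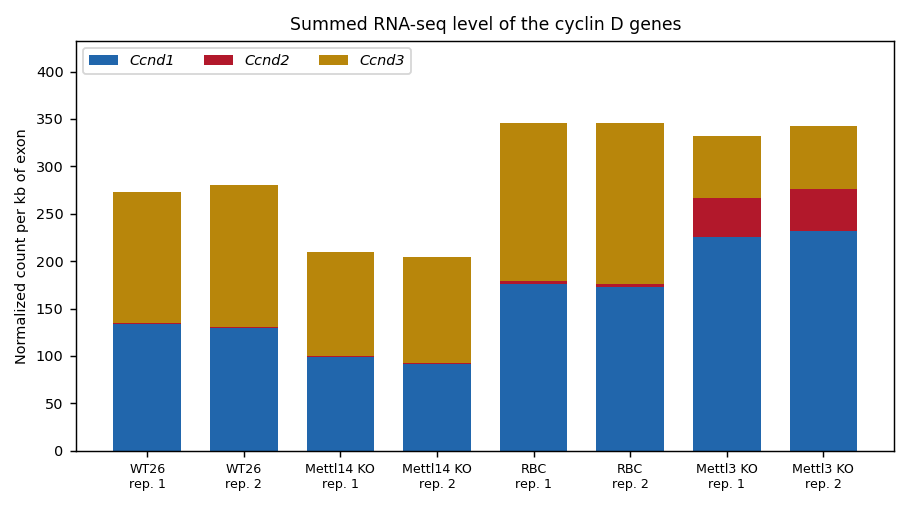
RNA-seq level of Ccnd1, Ccnd2 and Ccnd3 per kilobase of merged exons, stacked for each of the 8 libraries (bars from 0). The sums of RBC and Mettl3 KO lie between 331.5 and 346.0, with Ccnd2 at 12.1% and 13.0% of the sum in Mettl3 KO and at no more than 0.909% elsewhere.

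The E-type cyclins behaved unlike each other. Ccne1, cyclin E1 (ENSMUSG00000002068, chromosome 7, 38097984 to 38107534, minus strand), stood between 1187.9 and 1304.5 normalized counts in all 8 libraries, and each knockout overlapped its control. Its log2 fold change was -0.0032 in Mettl14 KO (95% interval -0.13 to 0.12, adjusted p = 0.972) and 0.03 in Mettl3 KO (SE 0.0590, adjusted p = 0.648). Ccne2, cyclin E2 (ENSMUSG00000028212, chromosome 4, 11191351 to 11204779, plus strand), gave 415.0 and 476.2 in RBC against 211.3 and 222.6 in Mettl3 KO. These groups were apart, and Ccne2 fell 2.06-fold (log2 fold change -1.04, SE 0.0910, adjusted p = 3.0e-08). The size of that fall lies at the call limit: it was -0.94 without the second RBC library and -0.89 with scaling by library size. In Mettl14 KO Ccne2 gave 409.6 and 391.6 against 416.9 and 414.4 in WT26, a change of -0.05 (95% interval -0.23 to 0.13, adjusted p = 0.624). The difference between the knockouts was 0.99 (adjusted p = 5.4e-06), and it was called without Mettl14 KO replicate 2 (1.02), RBC replicate 1 (1.08) or Mettl3 KO replicate 2 (1.03). Ints8, which shares 609 exon bases with Ccne2 on the other strand, stood between 591.3 and 891.3. In the inputs the fall of Ccne2 in Mettl3 KO was not called (-0.37, adjusted p = 0.669).

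Cdk6, a kinase partner of the D-type cyclins (ENSMUSG00000040274, chromosome 5, 3341485 to 3531008, plus strand), was the member that changed most in Mettl14 KO. It gave 1983.1 and 2020.6 normalized counts in WT26 and 581.9 and 639.1 in Mettl14 KO, and fell 3.28-fold (log2 fold change -1.71, SE 0.0594, adjusted p = 3.2e-13). RBC gave 1253.0 and 1199.8, between WT26 and Mettl14 KO and apart from both, and stood 0.71 below WT26 on the log2 scale (adjusted p = 2.0e-08). In Mettl3 KO it gave 1120.9 and 1057.6, a change of -0.17 (SE 0.0576, adjusted p = 0.0193). That change did not pass with DESeq2 (adjusted p = 0.0841), with scaling by library size (-0.017, adjusted p = 0.837), or without RBC replicate 1 (adjusted p = 0.115) or Mettl3 KO replicate 2 (adjusted p = 0.137). The change in Mettl14 KO exceeded that in Mettl3 KO by -1.54 (SE 0.0826, adjusted p = 1.7e-10). The inputs gave 1726.3 and 1733.6 in WT26 and 452.9 and 631.4 in Mettl14 KO, also without overlap, for a change of -1.68 (adjusted p = 0.0101). That input call was lost when any 1 of the 4 libraries was left out (-1.93 to -1.45, adjusted p = 0.0686 to 0.251). Of the 2 antisense genes over Cdk6, Gm42435 was at 0 in every RNA-seq library and Gm17590 at no more than 1.0.

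Cdkn1a, p21 (ENSMUSG00000023067, chromosome 17, 29090976 to 29100727, plus strand), is a well-known p53 target. It gave 321.0 and 319.9 normalized counts in WT26 and 245.4 and 254.3 in Mettl14 KO, a fall of 0.36 on the log2 scale (SE 0.0900, adjusted p = 0.00277). RBC gave 164.4 and 167.6, below both of those lines, and stood 0.95 below WT26 (SE 0.0968, adjusted p = 4.6e-07), a difference that scaling by library size carried past the size limit (-1.10). Mettl3 KO gave 207.0 and 191.4, above RBC and below the others, for a change of 0.26 (SE 0.102, adjusted p = 0.0373). That change did not pass with DESeq2 (adjusted p = 0.198), without a filter (0.0964), with only the libraries compared (0.0812), or without RBC replicate 1 (0.158), RBC replicate 2 (0.125) or Mettl3 KO replicate 1 (0.199). The changes in the knockouts differed by -0.62 (adjusted p = 0.00123). In the inputs the change was -0.89 in Mettl14 KO (adjusted p = 0.191) and -0.09 in Mettl3 KO (95% interval -0.68 to 0.50, adjusted p = 0.957), neither past the test.

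Cdkn1b, p27 (ENSMUSG00000003031, chromosome 6, 134920401 to 134925513, plus strand), gave 496.5 and 510.0 normalized counts in WT26 and 396.6 and 410.1 in Mettl14 KO. It fell there by 0.32 on the log2 scale (SE 0.0777, adjusted p = 0.00227), with the groups apart. RBC gave 379.4 and 360.8 and Mettl3 KO 363.5 and 337.4, which overlapped, and the change of -0.08 was not past the test (SE 0.0817, adjusted p = 0.458). The difference between the knockouts was -0.24 (adjusted p = 0.0917).

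The INK4 genes had few counts in every line. Cdkn2a, which encodes p16 and, in another reading frame, p19Arf (ENSMUSG00000044303, chromosome 4, 89274471 to 89294653, minus strand), was counted as 1 gene, so its products cannot be told apart. It gave 14.5 and 17.2 normalized counts in WT26 against 26.0 and 21.4 in Mettl14 KO. In RBC it gave 29.9 and 35.5, against 17.4 and 21.2 in Mettl3 KO. Each knockout stood apart from its own control, higher in Mettl14 KO and lower in Mettl3 KO. The change was 0.59 in Mettl14 KO (SE 0.319, adjusted p = 0.132) and -0.77 in Mettl3 KO (SE 0.287, adjusted p = 0.0303). The latter did not pass with DESeq2 (adjusted p = 0.196), with scaling by library size (0.0745), or without RBC replicate 2 (0.189) or Mettl3 KO replicate 1 (0.171). RBC stood 1.06 above WT26 (SE 0.303, adjusted p = 0.00973), and the 2 changes differed by 1.36 (SE 0.429, adjusted p = 0.0159). Neither of these last 2 calls held with DESeq2 (adjusted p = 0.100 and 0.128). The call between the control lines was also lost without WT26 replicate 1 (0.93, adjusted p = 0.085) or RBC replicate 2 (0.92, adjusted p = 0.0916). The call on the difference was lost without WT26 replicate 1, Mettl14 KO replicate 1, RBC replicate 2 or Mettl3 KO replicate 1 (1.22 to 1.23, adjusted p = 0.0538 to 0.0705).

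Cdkn2b, p15 (ENSMUSG00000073802, chromosome 4, 89306299 to 89311039, minus strand), gave between 5.0 and 14.8 normalized counts in all 8 libraries. Mettl14 KO overlapped WT26, and both Mettl3 KO libraries (7.8 and 6.0) lay below both RBC libraries (9.2 and 14.8). The change of -0.29 in Mettl14 KO (95% interval -1.46 to 0.88, adjusted p = 0.686) and that of -0.79 in Mettl3 KO (SE 0.495, adjusted p = 0.190) were not detectable at this depth.

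The inputs allow the same contrasts with a larger spread between replicates. In Mettl14 KO against WT26, 1 of the 10 genes was called (Cdk6), against 0.398% of all features. In Mettl3 KO against RBC, 1 was called (Ccnd2), against 0.752%. With the replicate block 359 and 422 of the 22621 features were called in place of 90 and 170, and 1 and 2 of the 10 genes (Ccnd3 beside Ccnd2).

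IP over input, the enrichment of a gene in the m6A pull-down, was modest for these genes. None of the 10 was called enriched in any line, against 14.5% of features in WT26, 13.4% in RBC, 11.9% in Mettl14 KO and 2.54% in Mettl3 KO. Below input by adjusted p alone were 1 of the 10 in WT26 (Cdk6, against 16.1% of features), 2 in RBC (Cdk6 and Ccnd3, against 13.1%), 1 in Mettl14 KO (Cdk6, against 12.0%) and 0 in Mettl3 KO (against 2.22%). The median log2 IP over input of the 10 was 0.12, 0.13, -0.25 and -0.09 in WT26, RBC, Mettl14 KO and Mettl3 KO. All features had medians within 0.03 of 0, which the size factors bring about. Above or below input is thus relative to the typical feature. Scaled by library size, the medians of all features were 0.44, 0.48, 0.43 and 0.36 in the same order.

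Cdkn1a had the highest fitted value in both control lines. Taken by pair of input and IP, its log2 IP over input was 0.38 and 0.97 (WT26), 0.50 and 1.01 (Mettl14 KO), 0.51 and 0.79 (RBC), and 0.19 and 0.55 (Mettl3 KO). The IP was above input in 8 of 8 pairs, at the 62.7th to 73.2nd percentile of tested genes. The fitted value was 0.70 in WT26 (adjusted p = 0.0576), 0.67 in RBC (0.0755) and 0.71 in Mettl14 KO (0.0657), each short of both limits, and 0.38 in Mettl3 KO (adjusted p = 0.397). Ccne1 was also above input in 8 of 8 pairs, with fitted values of 0.58, 0.52, 0.43 and 0.46 in WT26, RBC, Mettl14 KO and Mettl3 KO, none past the test. Cdkn1b was above input in 7 of 8 pairs, the exception being the second pair of Mettl3 KO, and its fitted value there was 0.07 against 0.54 to 0.59 in the other lines.

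Cdk6 lay below input in 8 of 8 pairs. The pairs gave -0.66 and -0.96 (WT26), -0.35 and -1.11 (Mettl14 KO), -0.66 and -0.92 (RBC), and -0.20 and -0.58 (Mettl3 KO). The fitted values were -0.81 in WT26 (adjusted p = 0.018), -0.79 in RBC (0.0236), -0.74 in Mettl14 KO (0.033) and -0.38 in Mettl3 KO (0.308), of which the first 3 passed by adjusted p alone. Ccnd3 lay below input in 8 of 8 pairs too, with -0.86 in RBC (adjusted p = 0.0374) and -0.71 in WT26 (0.0661). With input and IP paired in a replicate block, Ccnd3 passed in WT26 too (-0.75, adjusted p = 0.0392), while Cdk6 in Mettl14 KO no longer did (-0.72, adjusted p = 0.0606). The values that passed without the block no longer did with scaling by library size (adjusted p = 0.242 to 0.381 for Cdk6 and 0.295 for Ccnd3), which moved the median of all features up by 0.417 to 0.455 in these lines. Cdk6 in Mettl14 KO was also lost without a filter (adjusted p = 0.0786) and Ccnd3 in RBC with TMM (0.052). All 4 values were lost when only the libraries compared were fitted (0.0585 to 0.126 for Cdk6 and 0.079 for Ccnd3), and in each of these lines when input replicate 1, input replicate 2 or IP replicate 2 was left out, with the libraries left out singly giving an adjusted p of up to 0.249 for Cdk6 and 0.310 for Ccnd3. With a replicate block set apart in inputs and IPs, chosen after seeing the data, the values were smaller but passed by adjusted p alone. Cdk6 was at -0.61 (WT26), -0.59 (RBC) and -0.52 (Mettl14 KO), and Ccnd3 at -0.56 (WT26) and -0.71 (RBC), with edgeR adjusted p of 0.00719 to 0.0271. Of the 10 genes Cdk6 held the most GGACT copies, 9 in all, in a transcript of 11525 bases. Per kilobase that was 0.78, at the 33.4th percentile and below the median of 1.05.

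**Figure D4:**
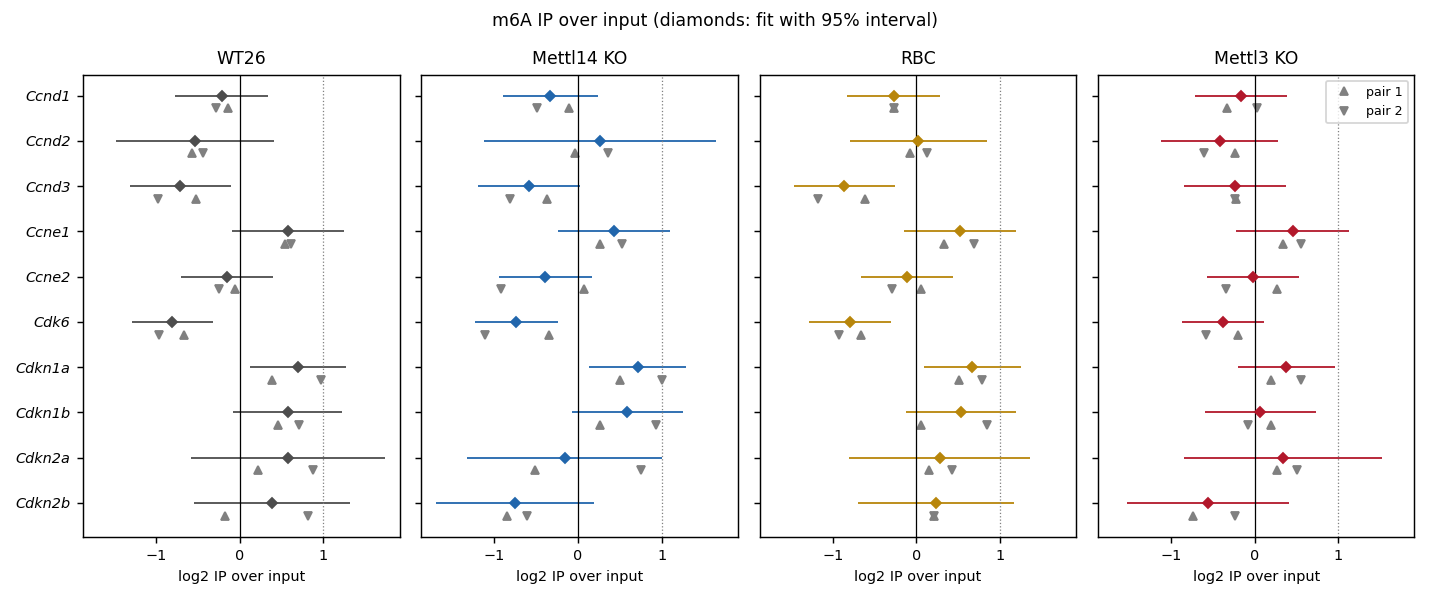
Log2 IP over input of each gene in each line (1 panel per line), as the fitted value with its 95% interval (diamonds, edgeR). Triangles give the value of each of the 2 input and IP pairs. The solid line at 0 marks equal normalized counts in IP and input, and a dotted line stands at 1. Cdkn1a and Ccne1 lie above 0 in all 8 pairs, and Cdk6 and Ccnd3 below 0 in all 8.

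The change of IP over input in each knockout asks whether a gene lost m6A signal relative to the median feature. Since the scaling sets that median near 0 in every line, a loss shared by most RNAs would not show. No feature was called in either knockout (0% of 22621), none of the 10 genes passed even at an unadjusted p of 0.05, and 126 features did so in Mettl14 KO and 787 in Mettl3 KO. DESeq2 called 1 feature and 0 features, and none of the 10. In Mettl14 KO the fitted changes ran from -1.14 for Cdkn2b (95% interval -2.47 to 0.19) to 0.80 for Ccnd2 (-0.89 to 2.48), which rests on 3 raw counts per knockout input, with adjusted p = 1 for all. In Mettl3 KO they ran from -0.79 for Cdkn2b (-2.14 to 0.55) to 0.63 for Ccnd3 (-0.23 to 1.49), with adjusted p of 0.854 or more.

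The intervals were wide. For Cdkn1a the change was 0.02 in Mettl14 KO (95% interval -0.79 to 0.82) and -0.29 in Mettl3 KO (-1.11 to 0.53). For Cdk6, whose RNA fell in Mettl14 KO, it was 0.07 (-0.62 to 0.76). For Ccnd2, whose RNA rose in Mettl3 KO, it was -0.44 (-1.52 to 0.64). On simulated counts with 200 features changed 4-fold, edgeR recovered 32.5% of the changes of IP over input in Mettl14 KO. In simulated RNA-seq counts of Mettl14 KO against WT26 it recovered 95.5% of 4-fold changes. How closely the simulated counts follow these libraries was not tested, so the rates are a check of the steps and do not give the power here.

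The other genes of the pathway were read from lists, chosen as the 10 genes were, with earlier results of these data known. Of 10 other CDKs and cyclins, 1 rose and 6 fell by adjusted p alone in each knockout, with a median of -0.27 (Mettl14 KO) and -0.29 (Mettl3 KO). Cdk4, which shares its cyclins with Cdk6, fell in both (-0.55, adjusted p = 2.6e-07, and -0.89, adjusted p = 5.6e-10). Cdk2, the partner of cyclin E, did too (-0.56, adjusted p = 7.7e-07, and -0.73, adjusted p = 5.7e-08). Between the control lines, RBC against WT26, Cdk2 was also at -0.55 (edgeR adjusted p = 1.6e-06) and Cdk4 at -0.09 (adjusted p = 0.243). The 1 gene of this list past the call limits was Ccna1, a cyclin of germ cells, in Mettl14 KO (-1.40, adjusted p = 0.0375), at 12.7 and 14 normalized counts in WT26 and 7 and 2.9 in the knockout. Of 3 other CDK inhibitors, none was called in a knockout, with 1 lower in Mettl14 KO and 1 higher in Mettl3 KO by adjusted p alone.

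Of 13 genes of the Rb and E2F group, 1 rose and 5 fell in Mettl14 KO, and 2 rose and 6 fell in Mettl3 KO. Rb1, which the cyclin D kinases phosphorylate, was at -0.07 in Mettl14 KO (adjusted p = 0.576) and fell by 0.57 in Mettl3 KO (adjusted p = 4.6e-05). It stood 0.77 higher in RBC than in WT26 (edgeR adjusted p = 3.7e-06). Its normalized counts in Mettl3 KO, 374.8 and 322.3, still lay above the 310.2 and 296.3 of WT26. Tfdp1, the DNA-binding partner of E2F factors, was called lower in Mettl3 KO (-1.02, adjusted p = 7.1e-11). Of 17 E2F targets, 2 rose and 12 fell in Mettl14 KO and 2 rose and 13 fell in Mettl3 KO, with medians of -0.22 and -0.37 and none called. Of 11 regulators of cyclins and CDKs tested, 2 rose and 6 fell in Mettl14 KO and 5 rose and 4 fell in Mettl3 KO, with none called. All these counts are by adjusted p alone. Of all 17021 genes, 4336 rose and 4594 fell in Mettl14 KO (52.5% in either direction). In Mettl3 KO 4296 rose and 4789 fell (53.4%). By the call limits, the difference between the knockouts called 1 of the 11 regulators, Cdc25b (-1.68, edgeR adjusted p = 6.5e-08), against 14.0% of all genes. Cdc25b gave 249.6 and 226.5 normalized counts in WT26 and 150.2 and 138.3 in Mettl14 KO. In RBC it gave 164.4 and 166.6, against 318.3 and 325.3 in Mettl3 KO. None of the Rb and E2F group or of the E2F targets was called in that difference.

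Beside the fall of Cdkn1a in Mettl14 KO, 15 of 17 other p53 targets fell and 0 rose by adjusted p alone, with a median of -0.60. Of all 17021 genes, 4594 fell and 4336 rose (52.5% in either direction). The called ones were Fas, a death receptor, Btg2, an antiproliferative factor, and Perp, a membrane protein of apoptosis. Fas was low, at 9 and 14 normalized counts in WT26 and 3 and 0 in Mettl14 KO. Btg2 gave 631.2 and 663.5 normalized counts in WT26 and 257.4 and 241.6 in Mettl14 KO. In Mettl3 KO 1 rose and 10 fell, with a median of -0.40, beside 4296 and 4789 of all 17021 genes (53.4% in either direction). Btg2 (-1.03, adjusted p = 1.5e-08) and the kinase gene Plk2 (-1.56, adjusted p = 1.0e-10) were called. Cdkn1a went the other way there (0.26), a change that rested on the processing, as given above. The difference between the knockouts called 1 of the 17 (Zmat3, -1.07), against 14.0% of all genes. In RBC against WT26, 6 of the 17 were higher and 2 lower by adjusted p alone, against 38.9% of all genes in either direction. Trp53 itself was at -0.12 in Mettl14 KO (adjusted p = 0.131) and -0.06 in Mettl3 KO (adjusted p = 0.476).

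The genes with the pattern most like Cdk6 over the 8 RNA-seq libraries, searched among 11878 genes whose mean reached 50 normalized counts, were Zbtb43 (Pearson r of log2 levels 0.996), Zfp982 (0.995) and Grb10 (0.990). Zbtb43 ran from 1075.2 and 1067.2 in WT26 to 607.9 in both Mettl14 KO libraries, with RBC and Mettl3 KO between 803.8 and 840.9. Those most like Ccnd2 were Cdca2 (0.994), Entpd7 (0.994) and Atxn7l2 (0.992), of which Cdca2 gave 4265.4 and 4425.8 in Mettl3 KO and 2371.2 to 3004.8 elsewhere. Since the 8 libraries come from 4 lines, such correlations rest on few independent points and are given as a description.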

How the data were processed

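Counts per gene (RNA-seq) and per gene and repeat subfamily (MeRIP) were used as the authors deposited them, as raw counts with no normalization. Per the submitters' processing notes, cutadapt 1.8.1, STAR 2.6.0c, DESeq2 1.26.0, FastQC and the build GRCm38 were used. The strand setting of the counting is not given in the sources used here, so overlapping antisense genes are named. Libraries were made with a stranded total RNA kit.

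Groups came from the sample titles, 2 libraries each. Counts were scaled with median-of-ratios size factors (DESeq2 1.42.0), which makes up the normalized counts, filtered with filterByExpr, and tested with the quasi-likelihood test of edgeR 4.0.16 in R 4.3.3, over all 8 RNA-seq or all 16 MeRIP libraries in 1 fit each, with Benjamini-Hochberg adjustment over all features tested. The common biological coefficient of variation was 0.0625 in RNA-seq and 0.273 in MeRIP. Calls required a log2 fold change past 1 in size and an adjusted p no higher than 0.05. IP over input, its change, and the difference between the knockouts were contrasts of these fits. For single pairs, log2 IP over input was taken with a pseudocount of 0.5. Input and IP of one number came from one RNA preparation per the methods of the study, and their deviations from the group means correlated at 0.214 to 0.302 within a line. Same-numbered inputs of different lines correlated at 0.246 to 0.454 and IPs at 0.567 to 0.792, so values with a replicate block are given where they change a call. In RNA-seq the correlations ran from -0.172 to 0.453, so its numbers were not taken as pairs. Gene positions, lengths, motifs and windows came from GENCODE M21 and the GRCm38 sequence, and 47224 IDs had a symbol. The steps were tested on simulated data with known 4-fold changes.

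The 10 genes, the lists and the tests were chosen with earlier results of these data known. Named were the 10 genes, genes overlapping them, Mettl3, Mettl14, Trp53, Rb1, Cdk4 and Cdk2. At most 3 called genes were named per list and knockout. For the regulators and the p53 targets, genes called in the difference between the knockouts were named too. For the member that changed most in each knockout, the 3 genes with the highest correlation were named. Alternatives were DESeq2, TMM and library-size scaling, no filter or a minimum of 10 counts, only the libraries compared, genes without repeats, a replicate block, the adjusted p alone, and leaving out each library. A block apart in inputs and IPs and the transcript length for the cyclin D sum were added after seeing the data.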

Additional observations from a re-analysis of the deposited data

Results flagged for a closer look

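Tests of the difference between the changes in the 2 knockouts, each against its own control line, singled out 3 of the 10 genes. Ccnd2 rose in Mettl3 KO relative to its change in Mettl14 KO (difference -4.46 on the log2 scale, edgeR adjusted p = 2.3e-06), with -4.07 as the value nearest 0 when a library was left out. In the WT26 and Mettl14 KO libraries alone Ccnd2 did not pass the filter on low counts. Cdk6 fell further in Mettl14 KO (difference -1.54, adjusted p = 1.7e-10). For Cdkn2a the difference was 1.36 (adjusted p = 0.0159), and it was not called by DESeq2 (adjusted p = 0.128) or when any of 4 of the 8 libraries was left out. Since the knockouts come from different control lines, the deleted gene and the line cannot be told apart in these differences.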

How the results depend on the processing

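The changes of Ccnd2 and Ccnd3 in Mettl3 KO and of Cdk6 in Mettl14 KO kept their direction and their call under every alternative in RNA-seq that gave a value, with 3.74 to 3.91, -1.37 to -1.33 and -1.78 to -1.64 when 1 library was left out. With a minimum of 10 counts Ccnd2 was not tested. Of the other called values of single genes, those that lost their call under some setting were Ccne2 in Mettl3 KO, Cdkn2a between the control lines and between the knockouts, and Cdk6 in the Mettl14 KO inputs, as given above, with 0.91 for Cdkn2a between the control lines under library-size scaling. No called value turned its sign. In all, called values held in 118 and lost the call in 15 of the alternatives, and uncalled values held in 1336, were called in 15 and turned their sign in 87, each value counted once per alternative. The cause of these shifts was not tested. Counts were low for Ccnd2 outside Mettl3 KO and for Cdkn2a and Cdkn2b.

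The number of the 10 genes called in RBC against WT26 was 1 with DESeq2, 1 with a minimum of 10 counts, and 1 to 2 with a library left out. For the difference between the knockouts it was 4 with scaling by library size, 2 with DESeq2 or a minimum of 10 counts, and 2 to 4 with a library left out. By adjusted p alone the RNA-seq counts were 5 in Mettl14 KO, 7 in Mettl3 KO, 7 between the control lines and 7 for the difference between the knockouts. In the inputs of Mettl3 KO it was 2 with DESeq2, without a filter and with only the libraries compared, and 0 with a minimum of 10 counts. In the inputs of Mettl14 KO it was 0 without any 1 library. Scaling by library size gave 1 gene enriched in the IP of WT26, 2 in RBC and 1 in Mettl14 KO, namely Cdkn1a (1.10, 1.13 and 1.13) and, in RBC, Cdkn1b (1.0).

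In RNA-seq, libraries that share only a number did not deviate together in every pair of lines, and with the replicate block the counts of the 10 genes stayed at 1, 3, 2 and 3. With input and IP paired in a replicate block, no gene of the 10 was called enriched or changed, and by adjusted p alone the block changed Ccnd3 in WT26 and Cdk6 in Mettl14 KO and no other call on IP over input. In the inputs the replicate block moved the count in Mettl3 KO from 1 to 2 (Ccnd3, -1.32, adjusted p = 0.0097), and left 1 in Mettl14 KO, while the counts over all features went from 90 and 170 to 359 and 422. With the block set apart in inputs and IPs, a setting chosen after seeing the data, it was also 2 in Mettl3 KO, the features enriched in the IP of Mettl3 KO went from 575 to 1002, Cdkn1a in the inputs of Mettl14 KO reached an adjusted p of 0.0153, and uncalled values turned sign for Cdkn1b in the change of IP over input of Mettl14 KO (-0.0054), for Cdkn1b (-0.088) and Ccne2 (0.23) in the IP of Mettl3 KO, and for Ccne2 in the IP of RBC (0.15) and WT26 (0.10).

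Other uncalled values turned sign too. With scaling by library size these were Cdkn2a in the change of Mettl3 KO (-0.028), Ccne2 (0.044), Cdkn2a (0.25) and Ccnd1 (0.10) in the IP of Mettl14 KO, Ccne2 (0.35), Ccnd3 (0.15) and Ccnd1 (0.23) in the IP of Mettl3 KO, Ccne2 (0.34) and Ccnd1 (0.19) in the IP of RBC, Ccne2 (0.27) and Ccnd1 (0.21) in the IP of WT26, Ccne1 (0.061) and Cdkn1a (0.021) in the inputs of Mettl3 KO, Cdkn1b in RNA-seq of Mettl3 KO (0.077) and Ccne2 in RNA-seq of RBC against WT26 (-0.045). That scaling moved the median of all features by 0.151 in RNA-seq of Mettl3 KO, -0.148 between the control lines and -0.175 in the difference between the knockouts. Ccne2 in the IP of Mettl3 KO turned with TMM (0.041) and with only the libraries compared (0.026), and Ccnd2 in the IP of RBC with genes alone (-0.047).

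With 1 library left out at a time, the uncalled changes of IP over input in Mettl14 KO ranged from -0.44 to 0.30 for Ccnd1, -0.017 to 1.59 for Ccnd2, -0.18 to 0.53 for Ccnd3, -0.71 to 0.27 for Ccne1, -0.59 to 0.023 for Ccne2, -0.15 to 0.32 for Cdk6, -0.23 to 0.36 for Cdkn1a, -0.18 to 0.20 for Cdkn1b and -1.17 to 0.32 for Cdkn2a. In Mettl3 KO they ranged from -0.016 to 0.25 for Ccnd1, -0.27 to 0.15 for Ccne1, -0.13 to 0.28 for Ccne2, -0.92 to 0.15 for Cdkn1b and -0.30 to 0.62 for Cdkn2a. IP over input in Mettl14 KO ranged from -0.66 to 0.070 for Ccnd1, -0.54 to 1.06 for Ccnd2, -0.12 to 0.85 for Ccne1 and -0.60 to 0.89 for Cdkn2a, and in Mettl3 KO from -0.24 to 0.17 for Ccne2, -0.086 to 0.20 for Cdkn1b and -0.017 to 0.89 for Cdkn2a. In RBC it ranged from -0.25 to 0.31 for Ccnd2, -0.25 to 0.041 for Ccne2, -0.077 to 0.99 for Cdkn1b and -0.11 to 0.56 for Cdkn2b, and in WT26 from -0.14 to 0.80 for Cdkn2b. The inputs gave -0.48 to 0.26 for Ccnd1, -0.075 to 0.64 for Ccne1 and -0.55 to 0.94 for Cdkn2a in Mettl14 KO, and -0.21 to 0.044 for Cdkn1a and -0.36 to 0.40 for Cdkn2b in Mettl3 KO. RNA-seq gave -0.066 to 0.055 for Ccne1 and -0.73 to 0.23 for Cdkn2b in Mettl14 KO, -0.026 to 0.10 for Ccne1 in Mettl3 KO, -0.11 to 0.014 for Ccne1 and -0.0015 to 0.20 for Ccne2 in RBC against WT26, and -0.10 to 0.027 for Ccne1 in the difference between the knockouts. Counted by the motif RRACH instead of GGACT, 5 rather than 3 of the 10 genes lay above the median density.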
